A study of Mus musculus with 38 samples.

Results

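The mir-200 family consists of 5 microRNAs (miRNAs), mmu-mir-141, mmu-mir-200a, mmu-mir-200b, mmu-mir-200c and mmu-mir-429. They were taken by name from the miRNA rows that matched the genome in small RNA libraries of mouse sperm, 5 of 689 such rows, and every library held reads of all 5. Sperm of 38 C57BL6/J males was sequenced, 10 CTCT, 9 CTPR, 9 PRCT and 10 PRPR mice. In these names the leading letters give the diet of the dam during pregnancy and lactation, and the closing letters that of the son from weaning at day 21 until he was killed at 11 to 13 weeks. CT is the control diet with 20% protein and PR the protein-restricted diet with 8%. CTCT mice were thus on control diet throughout, CTPR mice on restriction only after weaning, PRCT mice only through the dam, and PRPR mice throughout. By the compositions the study gives, the diets also differed in fat, sugar, fibre and vitamins. The sperm swam out of dissected and minced epididymides. Of the 21 litters, 17 gave a mouse to both post-weaning diets.

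MiRNAs are small RNAs that pair with messenger RNAs, mainly through a seed near their 5′ end, and lower the output of those messengers. The mir-200 family is best known for holding cells in the epithelial state: its members repress Zeb1 and Zeb2, transcription factors that silence the adhesion gene E-cadherin. The family is abundant in epithelia and low in cells of mesenchymal type. Sperm pass through the epididymis, a duct lined by epithelium, and take up small RNAs there from vesicles that the lining sheds.

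The mature sequences are given because the family falls into groups by seed, and because its members are so alike that reads may be hard to assign. In the RefSeq sequences of build GRCm38.p6, written 5′ to 3′ with the seed (bases 2 to 8) in capitals, the 3p arms are
mmu-miR-200b-3p: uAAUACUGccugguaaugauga
mmu-miR-200c-3p: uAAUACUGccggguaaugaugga
mmu-miR-429-3p: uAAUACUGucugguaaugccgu
mmu-miR-200a-3p: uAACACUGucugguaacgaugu
mmu-miR-141-3p: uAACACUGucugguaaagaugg
Seed AAUACUG was shared by mir-200b, mir-200c and mir-429 and seed AACACUG by mir-200a and mir-141. No other of the 1679 mature mouse miRNAs in the RefSeq table carried either seed. Counted from 1 at the 5′ end, the seeds of mir-200a and mir-200b differ by the substitution C4U. Outside the seed, mir-200b and mir-200c differed at 2 of the 22 positions compared (U11G and A22G), and mir-141 and mir-200a also at 2 (A17C and G22U). mir-429 differed from mir-200b at 4 of 22 positions.

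The 5p arms, usually the less abundant strand of these hairpins, do not carry these seeds. The deposited counts name each hairpin without its arm, so a value is the sum of both arms. How many mismatches the counting allowed is not given in the sources used here, and reads that end early or carry an error may have been split between mir-200b and mir-200c or between mir-200a and mir-141.

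Position groups the family differently from seed. On GRCm38 (mm10), the build of the files, Mir200b (chr4:156055681-156055750), Mir200a (chr4:156054896-156054985) and Mir429 (chr4:156053905-156053987) lie within 1846 bases on the minus strand of chromosome 4. All 3 are inside Ttll10, a protein-coding gene on the same strand, and overlap none of its exons in GENCODE release M21, so they are intronic to it. The hairpin of Mir429 overlaps an exon of Gm13648, a non-coding transcript that spans all 3. Mir200c (chr6:124718322-124718390) and Mir141 (chr6:124717914-124717985) lie 336 bases apart on the minus strand of chromosome 6, between the genes Phb2 and Ptpn6. They are inside the non-coding transcript Gm15884 without overlapping its exons, and the hairpin of Mir141 partly overlaps Gm29008, a transcript still to be experimentally checked in that release. Each seed is therefore encoded on both chromosomes.

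Reads that matched the genome numbered 4465281 to 7612603 per mouse, and miRNA reads 7805 to 378918, or 0.158% to 5.55% of them. Most of the low values belonged to the 9 mice of the 5 litters whose numbers run from 02 to 14, with 0.158% to 0.712% miRNA against 0.657% to 5.55% in the other 29. These litters held 3 CTCT mice and 2 of each other group, and nothing in the labels calls them a batch. The most abundant miRNA rows were mmu-mir-148a, mmu-mir-143 and mmu-mir-3535, with means of 20.5%, 8.59% and 7.33% of the miRNA reads.

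Levels of the family were widely spread between mice. Expressed as reads per 1000000 genome-matched reads (RPM), the sum of the 5 members ranged from 34.2 to 2227 with a median of 491 over 38 mice, a span of 65.2-fold. Expressed as a share of the miRNA reads, it ranged from 1.77% to 4.83% with a median of 3.84%, a span of 2.73-fold. The summed RPM moved with the RPM of all other miRNAs together (Spearman rho = 0.97 over 38 mice, 0.93 without the litters numbered 02 to 14). All these values come from the same libraries, so the coefficients are descriptions and carry no p. In bulk libraries such as these, fewer cells of a type and less RNA per cell cannot be told apart.

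**Figure D1:**
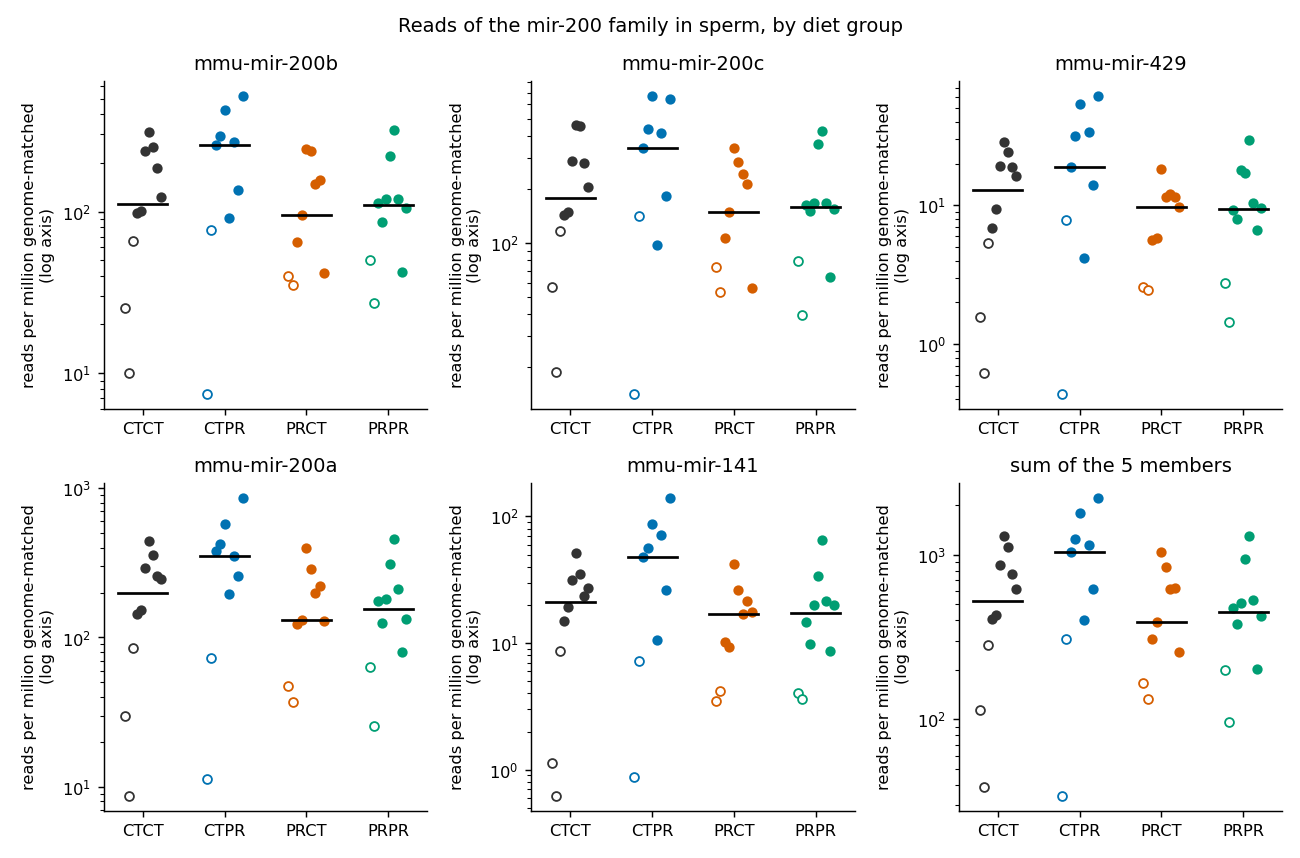
Reads per 1000000 genome-matched reads (RPM, log axis) of the 5 members and of their sum, 1 point per mouse by diet group, with the group median as a bar and open circles for the 9 mice of litters numbered 02 to 14. The groups overlap in every panel, the CTPR group, as labelled, holds the highest mouse in each, and the lowest mice of each group are mostly open circles. For mmu-mir-200c the highest is mouse 47I2, whose group the study's supplement exchanges with that of 47I1.

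In order of mean RPM, mmu-mir-200a (223 ± 178, SD, n = 38) and mmu-mir-200c (222 ± 166) came next to each other, at ranks 15 and 16 of the miRNA rows. Their order did not hold between mice: mir-200a had more reads than mir-200c in 17 of 38 mice, and in 0 of the 9 mice of litters numbered 02 to 14. mmu-mir-200b followed with 152 ± 119 RPM and was below mir-200c in all 38 mice and below mir-200a in 35. mmu-mir-141 (26.7 ± 28.2 RPM) and mmu-mir-429 (14.5 ± 13.7 RPM) were much lower, at ranks 69 and 100, and mir-141 exceeded mir-429 in 35 mice with 1 tie. These counts are not scaled by length, since the mature 3p arms all have 22 or 23 bases.

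mmu-mir-200b, encoded on chromosome 4, ranged over the CTCT mice from 10.1 to 312 RPM (median 112) and over the CTPR mice from 7.40 to 520 RPM (median 257). The PRCT mice had 35.0 to 245 RPM (median 95.2) and the PRPR mice 27.2 to 321 RPM (median 109). The 4 ranges overlapped, and the CTPR group held both the lowest and the highest mouse. As a share of miRNA reads its medians were close, with 0.954% in CTCT, 0.936% in CTPR, 0.922% in PRCT and 0.813% in PRPR mice.

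mmu-mir-200c carries the same seed from chromosome 6 and was the member with the narrowest span of RPM, 47.4-fold. It had 18.9 to 457 RPM (median 178) in CTCT, 14.1 to 670 RPM (median 343) in CTPR, 53.3 to 343 RPM (median 150) in PRCT and 39.3 to 427 RPM (median 160) in PRPR mice. The order of the medians changed with the scale: the CTPR median was the highest per genome-matched read and the lowest per miRNA read. The shares were 1.19% to 1.96% (median 1.43%) in CTCT, 0.540% to 2.00% (median 1.16%) in CTPR, 0.391% to 1.70% (median 1.26%) in PRCT and 0.957% to 1.67% (median 1.24%) in PRPR mice.

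mmu-mir-429 completes this seed group and was the least abundant member. It had 0.620 to 28.5 RPM (median 12.9) in CTCT, 0.435 to 61.5 RPM (median 19.0) in CTPR, 2.44 to 18.3 RPM (median 9.72) in PRCT and 1.44 to 29.4 RPM (median 9.40) in PRPR mice. Its lowest value rests on 2 reads, in CTPR mouse 02A8, whose share of 0.0256% has a 95% Wilson interval from 0.00703% to 0.0934%. Such intervals cover counting error only, as PCR copies were not told apart. Per miRNA read the PRCT mice lay between 0.0496% and 0.0782%, a range narrower than the counting interval of PRCT mouse 14A4 alone (14 reads, 0.0343% to 0.0965%), whereas the CTPR mice spread from 0.0231% to 0.143%.

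mmu-mir-200a, the main carrier of the other seed, had 8.67 to 444 RPM (median 200) in CTCT, 11.3 to 864 RPM (median 350) in CTPR, 37.1 to 395 RPM (median 132) in PRCT and 25.4 to 456 RPM (median 155) in PRPR mice. Its share of the miRNA reads was the most even of the family, from 0.548% to 1.56% over all mice, and the group medians lay between 1.23% in PRPR and 1.34% in CTCT mice. The ranges of all groups overlapped on both scales.

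mmu-mir-141, its partner in seed, varied most, by 227-fold in RPM over 38 mice. It had 0.620 to 51.8 RPM (median 21.3) in CTCT, 0.870 to 140.7 RPM (median 47.5) in CTPR, 3.51 to 41.9 RPM (median 16.8) in PRCT and 3.60 to 64.8 RPM (median 17.3) in PRPR mice. The CTPR median was the highest, and the CTPR mice spanned nearly the whole range of the 38 mice. Its shares were 0.0381% to 0.174% (median 0.148%) in CTCT, 0.0513% to 0.296% (median 0.161%) in CTPR, 0.0809% to 0.154% (median 0.113%) in PRCT and 0.0666% to 0.206% (median 0.119%) in PRPR mice.

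**Figure D2:**
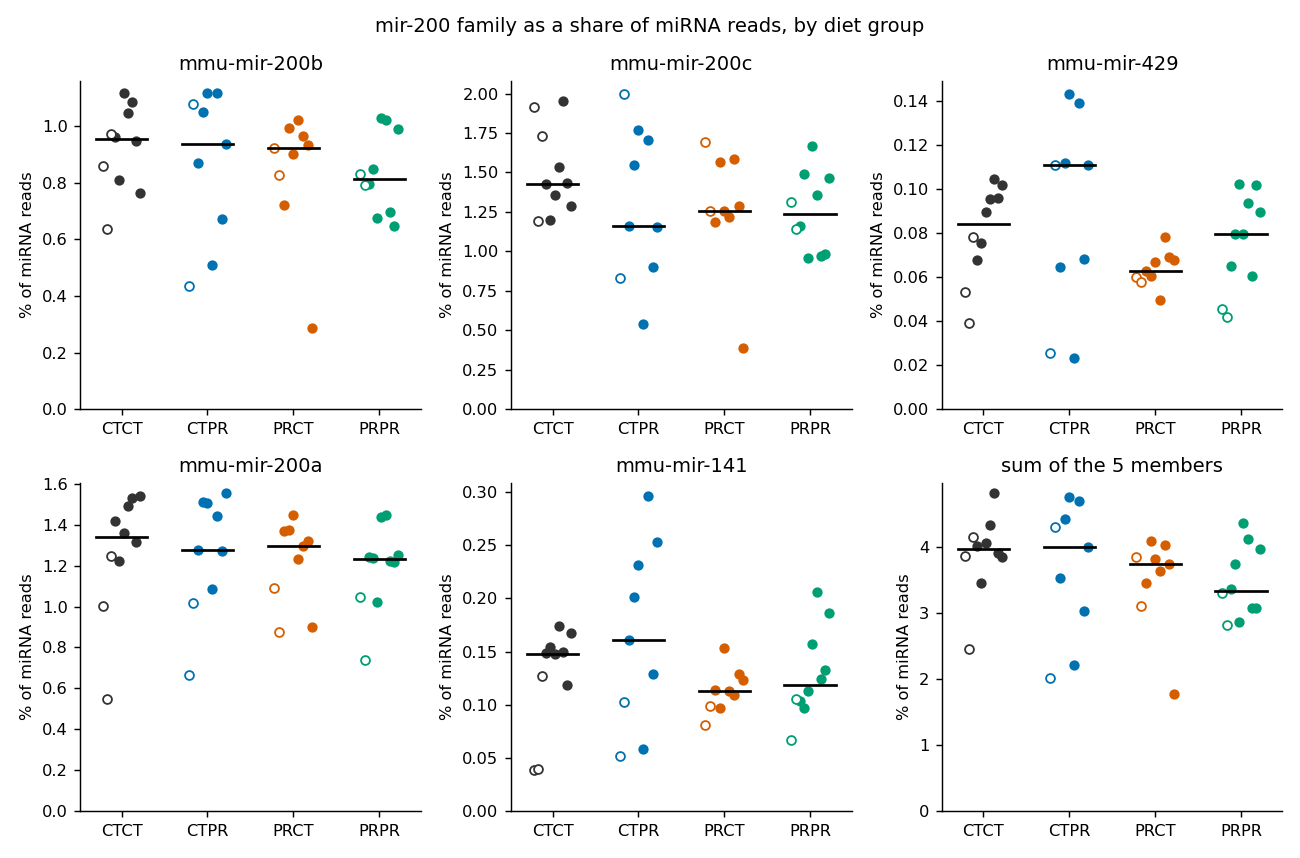
Share of miRNA reads in % of the 5 members and of their sum, 1 point per mouse by diet group, with the group median as a bar and open circles for litters numbered 02 to 14. The groups overlap in every panel. PRCT mouse 59L1 lies far below its group for mir-200b, mir-200c and the sum (1.77%).

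To ask whether diet after weaning changed the family in sons of control dams, CTPR mice were compared with CTCT mice. Per genome-matched read all 5 members were higher in CTPR on average (mmu-mir-200c not under the TMM scaling described next), and none passed the test (edgeR quasi-likelihood test, adjusted over 7026 rows, threshold 0.05). The log2 fold changes were 1.23 ± 0.62 (SE) for mmu-mir-141, 0.94 ± 0.57 for mmu-mir-429, 0.79 ± 0.53 for mmu-mir-200a, 0.71 ± 0.52 for mmu-mir-200b and 0.59 ± 0.49 for mmu-mir-200c. Over all rows tested, 2.55% were called, and none of these was a miRNA. Of the 200 miRNA rows, the 5 members among them, 0 were called in any of the comparisons on either scale. On simulated counts the fit per genome-matched read missed most miRNA changes of moderate size, and many of its calls, in other classes, were false. With litter as a block in this fit, 0 of the 7026 rows were called. Of the members, mmu-mir-141 had the smallest adjusted p without that block, 0.342 by edgeR and 0.615 by DESeq2. Its unadjusted p was 0.0524 (edgeR). Its fold was 2.34 with a 95% interval from 0.997 to 5.49, which holds no change as well as a change of several-fold. These values leave out the pairing by litter. With litter as a block its log2 fold change was 0.69 ± 0.41 (SE, edgeR). Those of the other members then ran from 0.15 for mmu-mir-200c to 0.45 for mmu-mir-429. No member had an unadjusted p under 0.05 with either tool. Without the litters numbered 02 to 14 the log2 fold change of mmu-mir-141 was 1.12 (unadjusted p = 0.0207, adjusted p = 0.259, edgeR). Over 14 alternative settings its unadjusted p ran from this value to 0.2465 under TMM.

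The members lay on both sides of the median of the miRNAs in this comparison. The median log2 fold change of the 200 miRNA rows tested was 0.79, the same as that of mmu-mir-200a, 198 of the 200 were positive, and the median of all 7026 rows was 0.67. Scaling by trimmed mean (TMM) lowered these medians to 0.18 and 0.14, and the members then ran from 0.55 for mmu-mir-141 to -0.04 for mmu-mir-200c, whose direction turned. Per miRNA read the log2 fold changes were 0.35 ± 0.23 for mmu-mir-141, 0.14 ± 0.21 for mmu-mir-429, -0.01 ± 0.15 for mmu-mir-200a, -0.08 ± 0.18 for mmu-mir-200b and -0.21 ± 0.20 for mmu-mir-200c. On this scale 0% of the 200 rows were called, and 13 had an unadjusted p under 0.05, none of them a member. DESeq2 also called 0. The 95% interval of the fold was 0.802 to 1.23 for mmu-mir-200a and 0.926 to 1.76 for mmu-mir-141. The directions of mir-200a and mir-429 on this scale rest on settings: mir-200a turned positive under TMM (0.02), and mir-429 became -0.05 when mice 47I1 and 47I2 were exchanged, as the study's supplement groups them.

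**Figure D3:**
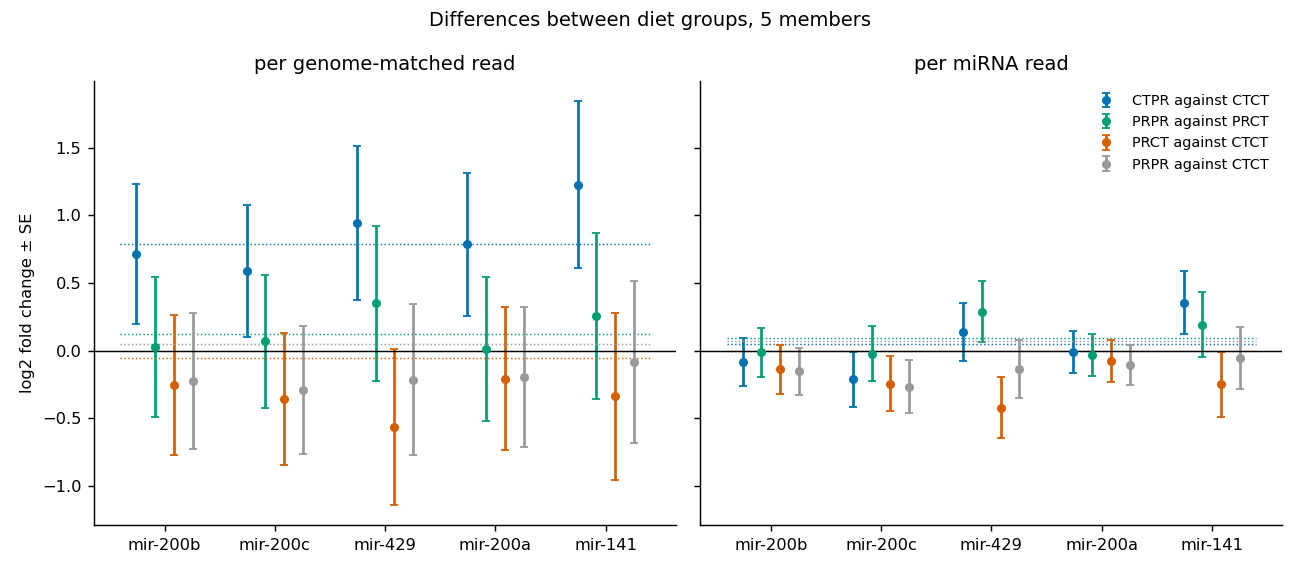
Log2 fold change ± SE (edgeR) of the 5 members in 4 comparisons of diet groups, per genome-matched read on the left and per miRNA read on the right; dotted lines mark the median of the 200 miRNA rows in each comparison. On the left the CTPR against CTCT values lie around the dotted line at 0.79, and on the right the values of all comparisons lie between -0.42 and 0.35.

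The same question in sons of restricted dams, PRPR against PRCT, gave smaller values. Per genome-matched read, 0.384% of the rows were called and 0 of the members. The log2 fold change was 0.35 ± 0.57 for mmu-mir-429 and 0.25 ± 0.61 for mmu-mir-141, and those of mir-200a (0.01), mir-200b (0.03) and mir-200c (0.07) turned negative under TMM. Per miRNA read mmu-mir-429 was at 0.29 ± 0.23 and mmu-mir-141 at 0.19 ± 0.24, and mir-200a, mir-200b and mir-200c lay within 0.03 of 0. There 0% of rows were called by edgeR, 9 had an unadjusted p under 0.05, and DESeq2 called 0.

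Diet before weaning was compared between PRCT and CTCT mice. All 5 members were lower in PRCT mice on average on both scales, except that mmu-mir-200a per genome-matched read came to 0.00015 without litter 47I. None passed the test, and 0.769% of the rows per genome-matched read and 0% per miRNA read were called. Per miRNA read 11 rows had an unadjusted p under 0.05 with edgeR, and DESeq2 called 0. The member farthest from 0 was mmu-mir-429, with -0.56 ± 0.58 per genome-matched read and -0.42 ± 0.23 per miRNA read (unadjusted p = 0.0688, adjusted p = 0.698, edgeR). The 95% interval of its fold per miRNA read was 0.546 to 1.02. In the comparison of lifelong restriction, PRPR with CTCT, 1.08% of rows per genome-matched read and 0% per miRNA read were called and 0 of the members. Per miRNA read 6 rows had an unadjusted p under 0.05 with edgeR, and DESeq2 called 0. The log2 fold changes of the members ran from -0.29 for mmu-mir-200c to -0.09 for mmu-mir-141 per genome-matched read, and without litter 47I those of mmu-mir-141 (0.16) and mmu-mir-200a (0.01) were positive. These comparisons share the CTCT mice.

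Whether the post-weaning effect depended on the diet before weaning was tested as an interaction. Per genome-matched read it was negative for all 5 members, from -0.97 ± 0.87 for mmu-mir-141 to -0.52 ± 0.69 for mmu-mir-200c, beside a median of -0.66 over the miRNA rows. No member passed the test (smallest adjusted p of a member 0.859, edgeR), while 2.21% of all rows and 0 of the 200 miRNA rows did. With litter as a block in the fit, 0 of the 7026 rows passed. Per miRNA read the values lay between -0.16 and 0.19, and 0% of the rows were called by edgeR, with 7 at an unadjusted p under 0.05 and 0 called by DESeq2.

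Littermates gave a closer view of diet after weaning. Among the 8 litters of control dams, the summed family RPM was higher in the CTPR brother in 6, with a mean log2 ratio of 0.20 ± 1.24 (SD). The ratio ranged from -1.74 in litter 02A, where RPM went from 114 to 34.2, to 1.84 in litter 57P, where it went from 620 to 2227. Among the 9 litters of restricted dams it was higher in the PRPR brother in 4, with a mean of -0.03 ± 0.73. The share of miRNA reads was higher in the CTPR brother in 6 of 8 litters by at most 0.26 on the log2 scale, and it was lower in litters 02A (log2 ratio -0.95) and 49K (-1.12), so that the mean was negative (-0.18 ± 0.54). In restricted litters it was higher in the PRPR brother in 3 of 9. With the mice 47I1 and 47I2 exchanged, both counts in litters of control dams became 5 of 8, and the mean log2 ratio of RPM 0.08 ± 1.26. In restricted litters the widest ratio of share was that of 59L, with 1.77% in the PRCT and 3.98% in the PRPR brother. The widest ratio of RPM there was that of 51O (log2 ratio -1.63), with 626.5 RPM in the PRCT and 202.7 RPM in the PRPR brother.

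**Figure D4:**
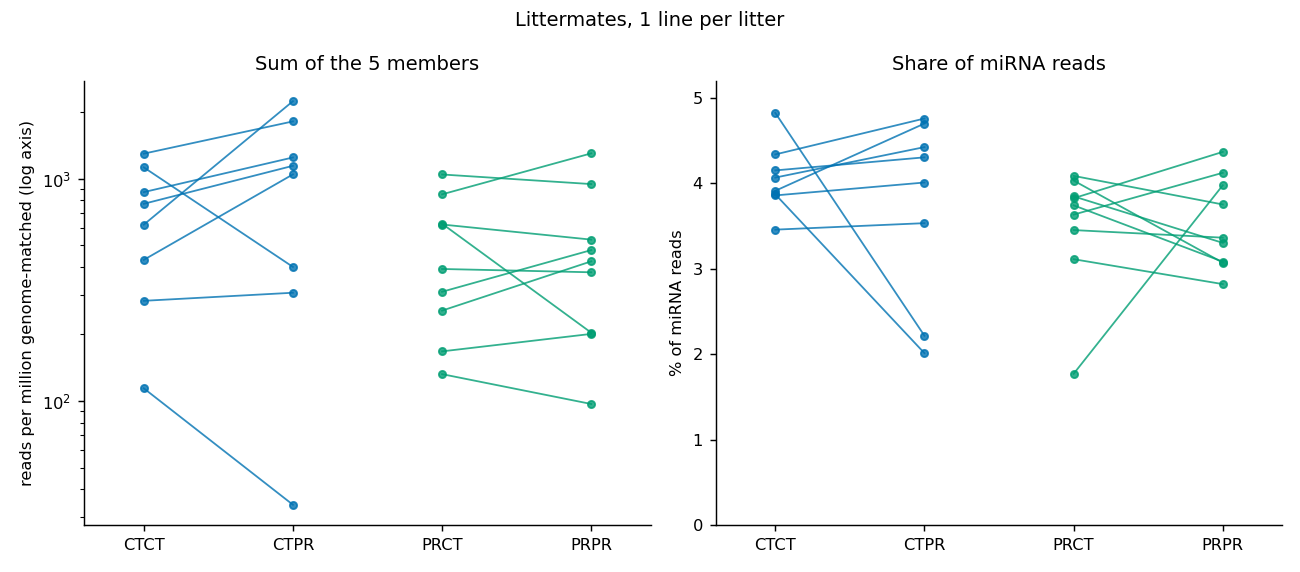
The sum of the 5 members in 17 litters, 1 line per litter joining the brother on control diet after weaning to the brother on restriction, as RPM (left, log axis) and as % of miRNA reads (right). From CTCT to CTPR, as labelled, 6 lines rise and 2 fall in each panel. In the right panel the longest lines are the falling 02A and 49K and the rising 59L.

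Brothers resembled each other more in some members than in others. Correlating the deviations of brothers from their group means over the 17 litters gave r = 0.85 for the RPM of mmu-mir-200a and 0.63 for that of mmu-mir-200c, beside 0.83 for the miRNA content itself. On the scale of miRNA share, r was 0.65 for mmu-mir-200a and 0.62 for mmu-mir-141, 0.34 for mmu-mir-429, -0.10 for mmu-mir-200b and -0.26 for mmu-mir-200c. These are descriptions, given without a test. Brothers share a dam and her diet, and both brothers of litters 02A, 08G, 09H and 14A had little miRNA.

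The make-up of the family changed from mouse to mouse. mmu-mir-200c made up 22.1% to 49.5% of the family's reads (median 35.4%), mmu-mir-200a 22.3% to 50.9% (median 33.8%) and mmu-mir-200b 16.3% to 28.1% (median 23.6%). mmu-mir-141 contributed 0.982% to 6.96% and mmu-mir-429 1.04% to 3.81%. In the 9 mice of litters numbered 02 to 14 mmu-mir-200c took 39.8% to 49.5%, and in the other 29 mice 22.1% to 40.5%. For mmu-mir-200a the ranges were 22.3% to 33.1% and 30.7% to 50.9%. By seed, mir-200b, mir-200c and mir-429 together held 64.3% to 76.1% of the family in these 9 mice and 42.2% to 65.2% in the others. By chromosome, the chromosome 6 pair held 41.8% to 50.5% and 27.0% to 43.6%. Between the diet groups the medians of the 3 abundant members were close, with 34.4% to 36.1% for mmu-mir-200c, 33.5% to 34.2% for mmu-mir-200a and 23.4% to 23.9% for mmu-mir-200b. Those of the scarce members were further apart in proportion, with 3.37% in CTCT, 4.55% in CTPR, 3.17% in PRCT and 3.83% in PRPR mice for mmu-mir-141, and 2.17%, 2.53%, 1.82% and 2.05% for mmu-mir-429. The ranges of the groups overlapped, and no test was made.

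**Figure D5:**
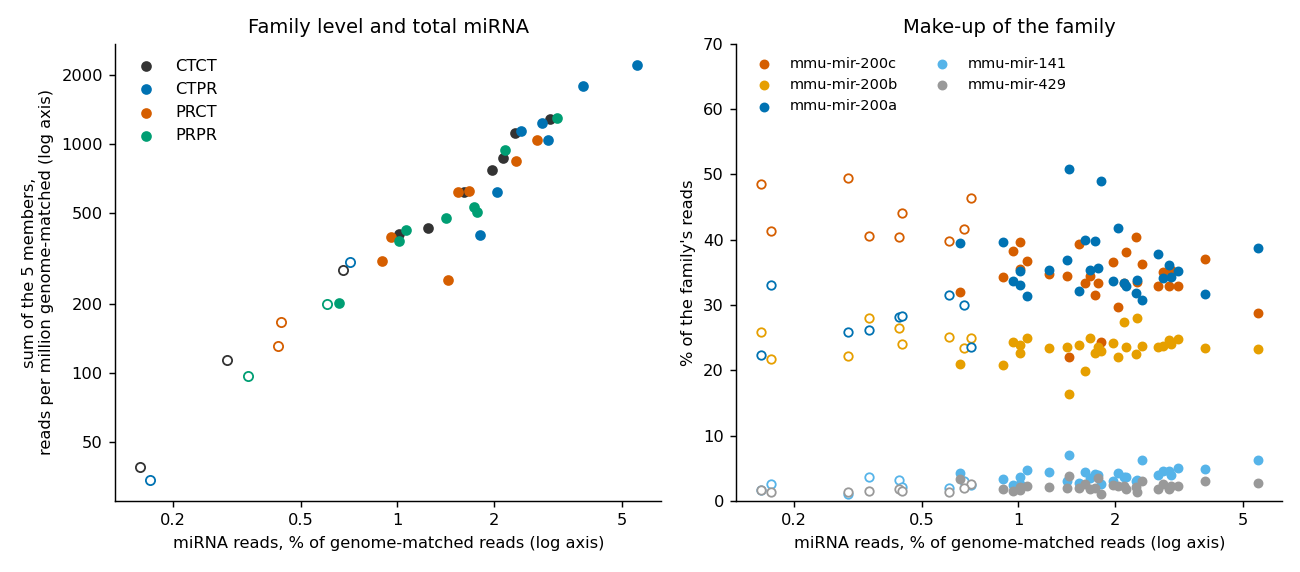
Left, summed RPM of the 5 members against the miRNA content of the library (both log axes), 1 point per mouse by diet group. Right, the share of each member in the family's reads (%) against the same content. Open circles mark litters numbered 02 to 14. The family rises with miRNA content, and in the open circles mmu-mir-200c lies above mmu-mir-200a in all 9 mice.

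The members differed in how their share of miRNA reads moved with the miRNA content of the library. Over 38 mice Spearman's rho was 0.76 for mmu-mir-141, 0.75 for mmu-mir-200a, 0.55 for mmu-mir-429, 0.49 for mmu-mir-200b and 0.07 for mmu-mir-200c. Without the litters numbered 02 to 14 it was 0.60, 0.53, 0.38, 0.51 and 0.20. The pair from the chromosome 6 cluster therefore stood at the ends of this order. The reads of mmu-mir-200c per read of mmu-mir-141 ranged from 3.17 in PRCT mouse 59L1 to 50.4 in CTCT mouse 02A6, which had only 5 reads of mmu-mir-141. In the litters numbered 02 to 14 the median was 19.6, and in the others 8.45.

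The shares of some members in the miRNA reads went together across mice more closely than those of others, and neither seed nor cluster ordered all 10 pairs. Of the 4 pairs with a common seed, Spearman's rho was 0.81 for mmu-mir-200b with mmu-mir-200c, 0.78 for mmu-mir-200a with mmu-mir-141, 0.56 for mmu-mir-200b with mmu-mir-429 and 0.42 for mmu-mir-200c with mmu-mir-429. Of the 6 pairs that differ in seed, it was 0.72 for mmu-mir-141 with mmu-mir-429, 0.62 for mmu-mir-200a with mmu-mir-429 and 0.61 for mmu-mir-200a with mmu-mir-200b, and between 0.16 and 0.49 for the other 3, lowest for the cluster neighbours mmu-mir-200c and mmu-mir-141. Both pairs with the highest rho join members on different chromosomes. Without mice 49K3 and 59L1, rho was 0.77 for mir-200b with mir-200c and 0.78 for mir-200a with mir-141. Without the litters numbered 02 to 14 it was 0.85 for mir-200b with mir-200c, but 0.65 for both mir-200a with mir-141 and mir-200a with mir-200b. The 2 pairs with the highest rho over all 38 mice are also the 2 whose 3p arms differ by 2 bases, and the part of shared reads in this was not tested.

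The 8 other miRNAs most like the family in RPM over the 38 mice ranged from 31.5 to 678 RPM on average. By Spearman's rho against the summed family they were mmu-mir-27b (0.98), mmu-mir-30d (0.98), mmu-mir-26b (0.97), mmu-mir-21a (0.97), mmu-mir-99a (0.97), mmu-mir-100 (0.97), mmu-mir-10b (0.97) and mmu-mir-1839 (0.97). Likeness of this size was common: the median rho over 195 miRNA rows was 0.85, and 135 rows exceeded 0.8. Each member compared with the sum of the other 4 gave 0.96 to 0.99. The 3 least like the family were mmu-mir-877 (0.27), mmu-mir-7222 (0.12) and mmu-mir-3535 (-0.01). As mmu-mir-3535 ranged from 0.496% to 28.4% of the miRNA reads, its reads were a varying part of the denominator of every share, and its own share ran against that of the family (rho = -0.53).

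Markers of tissues were read from 7 lists. Of the 11 rows of other miRNAs typical of epithelia, 9 were abundant enough to test and 0 were called in any comparison, as was true of all 200 miRNA rows, so that the counts of 0 given for these lists do not set them apart. Led by mmu-mir-182 (66.3 RPM), mmu-mir-183 (45.4) and mmu-mir-203 (16.1), they summed to 0.772% to 1.21% of miRNA reads in CTCT, 0.847% to 1.26% in CTPR, 0.940% to 1.22% in PRCT and 0.810% to 1.21% in PRPR mice. Every row of the list had reads, mmu-mir-215 only in 6 mice. The summed share followed that of the mir-200 family with rho = 0.41.

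The list of testis germ cells checks the labelled tissue and was well represented, with 19 of 21 rows tested and 0 called. Its leading rows were mmu-mir-34c (468 RPM), mmu-mir-881 (374) and mmu-mir-871 (27.5), and mmu-mir-449c had a single read in all. It summed to 2.99% to 8.04% of miRNA reads in CTCT, 5.26% to 13.7% in CTPR, 5.00% to 10.6% in PRCT and 5.61% to 10.7% in PRPR mice. Per miRNA read the log2 fold changes of the list lay mostly above 0. In PRCT against CTCT, where the members were negative, 15 of 19 were positive (median 0.30), beside 100 of the 200 miRNA rows (median 0.00049). In PRPR against CTCT 19 of 19 were positive (median 0.45), beside 119 of 200 (median 0.07). In CTPR against CTCT it was 16 of 19 (median 0.26), beside 110 of 200 (median 0.05). In this order of comparisons, 4, 3 and 5 of 9 epithelial rows were positive (medians -0.05, -0.15 and 0.07). For muscle and connective tissue it was 4, 4 and 5 of 10, for blood 1, 2 and 2 of 3, and for neurons 2, 3 and 3 of 3. The summed share of the germ cell list was higher where that of the mir-200 family was lower (rho = -0.51 over 38 mice), but this did not hold for every row. The 2 leading rows had rho = -0.35 (mmu-mir-34c) and -0.50 (mmu-mir-881), whereas mmu-mir-449a (0.10), mmu-mir-880 (0.11) and mmu-mir-883a (0.07) were among the rows above 0. In the litters numbered 02 to 14 the median germ cell share was 9.98%, against 6.44% in the others, and the median family share was 3.30% against 3.86%. The part of the cells' make-up in the family's values was not tested.

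Rows of the lists for other tissues also had reads, and where these reads came from was not tested. The study reported that its sperm were of high purity. The list of muscle and connective tissue, led by mmu-mir-143 (1565 RPM), mmu-mir-145a (132) and mmu-mir-199a-2 (65.6), held 4.71% to 14.6% of miRNA reads in CTCT, 5.14% to 16.96% in CTPR, 9.08% to 13.9% in PRCT and 7.79% to 12.7% in PRPR mice. It had 10 of 12 rows tested, 0 called, and its share followed that of the family with rho = 0.47. mmu-mir-126a of endothelium held 0.218% to 1.08% and followed with rho = 0.47. Blood miRNAs, led by mmu-mir-223, mmu-mir-142a and mmu-mir-451a, held 0.0849% to 0.551%, with 3 of 7 rows tested and 0 called. The neuronal list held at most 0.0604%, led by mmu-mir-9-3, with 3 of 6 rows tested and 0 called, and mmu-mir-122 of liver, seen in 19 mice, at most 0.105%. Against the share of the family, rho was -0.29 for the blood list, -0.03 for the neuronal list and -0.07 for mmu-mir-122. Each of these shares has the same denominator as that of the family.

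The deposited files also hold miRNA rows that did not match the genome. None of the 5 members was among them.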

How the data were processed

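The authors sequenced the small RNA fraction of sperm from 38 mice and ran SPORTS 1.0 against the mm10 genome and databases of small RNAs. The deposited values are read counts per class and row, neither normalised nor pooled. Database versions and aligner settings are not given in the sources used here. Diet groups were taken from the sample labels. The study's supplement exchanges 47I1 and 47I2, which was run as an alternative, and its genome-matched totals equal those in the files for all 38 mice.

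Counts were divided by genome-matched reads (RPM, per 1000000) or by the total of the miRNA class, which exceeds the sum of its rows by 165 to 508 reads. Tests used edgeR 4.0.16 (glmQLFit, glmQLFTest) in R 4.3.3 with all 4 groups in 1 fit, on rows with a mean of at least 10 reads, 7026 of all classes with genome-matched reads as library size and 200 miRNA rows with the summed miRNA rows as library size, and Benjamini-Hochberg adjustment. Relations and levels were computed in Python with scipy. Simulated counts were drawn independently for each row and mouse, so they lacked the shared movement of miRNAs and of brothers seen in the real libraries. On them the miRNA fit recovered large changes with few false calls. The fit of all classes missed most miRNA changes of moderate size, and many of its calls, in sparse rows of other classes, were false. DESeq2 1.42.0, TMM, other filters, litter blocks and left-out mice were alternatives. The fits without litters numbered 02 to 14, without 49K3 and 59L1, and by edgeR's older method were chosen after seeing the data.

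Litters come from the mouse IDs. Brothers deviated together from their group means (r = 0.83 over 17 litters for miRNA content), so litter pairs the mice. The main fits compare group means and leave this pairing out, and only the fit with litter blocks uses it. P-values of the main fits measure the spread between mice. Any 2 mice of a group differed in miRNA counts by more than counting error (chi-square over its degrees of freedom at least 12.5). At 7805 miRNA reads, counting error is large for mmu-mir-141 and mmu-mir-429, and elsewhere the spread between mice limits precision. Named by a rule set beforehand are the 5 members, the 8 most and 3 least like them, the 3 most abundant rows and up to 3 of each marker list. Further rows of the epithelial and germ cell lists were named after their values were seen. The members and lists were chosen with earlier results of these data known. Sequences and coordinates are RefSeq's for GRCm38.p6 (all 5 matched).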

Additional observations from a re-analysis of the deposited data

Results flagged for a closer look

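Of 48 sets of mice examined (5 members and their sum, on 2 scales, in 4 groups), 4 held a mouse whose gap to its nearest neighbour was wide for a group of that size. Chance flags about 1 in 20 such sets if their values are normally distributed, which was not checked, and the 4 are not independent. RPM values were used here without taking logs. PRCT mouse 59L1 stood below its group in share of miRNA reads for mmu-mir-200b (0.288%, next lowest 0.721%), for mmu-mir-200c (0.391%, next lowest 1.18%) and for the family sum (1.77%, next lowest 3.11%). In the same mouse mmu-mir-200a was at 0.901% and mmu-mir-141 at 0.123%, inside the range of the group. PRPR mouse 40H3 stood above its group in mmu-mir-141, with 64.8 RPM against 34.04 RPM in the next highest. Its library had the highest miRNA content of the PRPR group, 3.15% of genome-matched reads. The causes were not tested.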

How the results depend on the processing

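No alternative brought a member past the threshold: all 129 recomputed counts of members called were 0. Of 645 recomputed log2 fold changes of single members 615 kept their direction and 30 turned, none of them past the threshold and the largest at 0.16. Per genome-matched read, TMM scaling turned mmu-mir-200c in CTPR against CTCT (-0.035) and mmu-mir-200a (-0.13), mmu-mir-200b (-0.11) and mmu-mir-200c (-0.084) in PRPR against PRCT. In that comparison mmu-mir-200a also turned with litter as replicate block (-0.069), and mmu-mir-200a and mmu-mir-200b without the litters numbered 02 to 14 (-0.024 and -0.0031) and, with mmu-mir-200c, without 49K3 and 59L1 (-0.034, -0.085 and -0.048). Without litter 47I, mmu-mir-200a came to 0.00015 in PRCT against CTCT and 0.012 in PRPR against CTCT, and mmu-mir-141 to 0.16 in the latter. Per miRNA read in CTPR against CTCT, mmu-mir-200a turned under TMM (0.025), without litter 02A (0.026) and without 49K3 and 59L1 (0.017), and mmu-mir-429 with 47I1 and 47I2 exchanged (-0.055). In PRPR against PRCT, mmu-mir-200b and mmu-mir-200c turned with the replicate block (0.060 and 0.068) and without litters numbered 02 to 14 (0.013 and 0.053), and mmu-mir-200a, mmu-mir-200b and mmu-mir-200c without 07C3, 35F2, 08G5 and 31A3 (0.012, 0.018 and 0.012). The interaction turned for mmu-mir-200a with the replicate block (0.092), without 07C3, 35F2, 08G5 and 31A3 (0.12) and without litters numbered 02 to 14 (0.015), for mmu-mir-200b under TMM (-0.0056) and without 49K3 and 59L1 (-0.12), and for mmu-mir-200c without 49K3 and 59L1 (-0.034). The causes were not tested.

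The paired fit, with litter as replicate block, changed no call of a member. It moved mmu-mir-141 in CTPR against CTCT from 1.23 to 0.69 ± 0.41 per genome-matched read (adjusted p = 0.774, edgeR). Over the 14 alternatives the adjusted p of that value ran from 0.259, without the litters numbered 02 to 14, to 0.871, under TMM. Counts of all rows called were less stable. In CTPR against CTCT 179 of 7026 rows were called, but 0 with the replicate block, 0 with only the compared groups in the fit, 12 by the older edgeR method, 16 of 8742 by edgeR's own filter, 79 by DESeq2, 80 under TMM and 390 of 638429 without a filter. For the other comparisons the counts ranged from 0 to 276 for PRCT against CTCT (54 as reported), 1 to 287 for PRPR against CTCT (76), 0 to 277 for PRPR against PRCT (27) and 0 to 454 for the interaction (155). Per miRNA read they ranged from 0 to 4. The percentages of rows called are thus a loose background.

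Depth limited the scarce members most: mmu-mir-141 and mmu-mir-429 rest on as few as 4 and 2 reads in a library, and for mmu-mir-429 the counting interval of single mice was as wide as the range of the PRCT group.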

Other observations

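CTPR mouse 49K3 and PRCT mouse 59L1 both had much mmu-mir-200a and little mmu-mir-200c among their family reads. In 49K3 mmu-mir-200a made up 49.0% and mmu-mir-200c 24.4% of them, in 59L1 50.9% and 22.1%, whereas over the 38 mice the medians were 33.8% and 35.4%. For mmu-mir-429 they were opposite extremes, with the lowest contribution of all mice in 49K3 (1.04%) and the highest in 59L1 (3.81%), and mmu-mir-141 contributed 2.63% and 6.96%. These mice came from different litters and diet groups, and were singled out after their values were seen.

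mmu-mir-205, a miRNA of stratified and basal epithelia, was the row of the epithelial list whose share of miRNA reads went most closely with that of the family (Spearman's rho = 0.74 over 38 mice), with 12.1 RPM on average and reads in 37 mice. In the same list the rho of mmu-mir-375 was -0.30 and that of mmu-mir-192 was -0.27. They too were picked after their values were seen, and no test was made.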
